A study of Rattus norvegicus with 4 samples.

Results

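MSTRG.30907 is a locus of long noncoding RNA (lncRNA) transcripts on rat chromosome 8, 54185046 to 54609277, that was assembled from sequencing reads rather than taken from an annotation. Its members are all transcripts whose identifier begins with MSTRG.30907, and there were 35 of them among the 20524 lncRNA transcripts listed. The samples were cultures of cortical astrocytes from Wistar rat pups, kept on coverslips above neurons and sequenced as total RNA. In the OGD group (2 libraries) the co-cultures had no glucose and little oxygen for 45 min, followed by 24 h in normal medium and air, a form of ischemic preconditioning. The control group (2 libraries) was untreated, and both groups shared the co-culture. The series asked which lncRNAs differ between these groups, and the labels do not say whether the replicates were separate cultures, so p-values measure no more than how these libraries vary, possibly for technical reasons. The locus was selected on earlier results for its counts in the same 4 libraries, so the shares of its isoforms are described without a test.

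An isoform is 1 of several RNAs made from the same stretch of genome by different start sites, end sites or splicing. StringTie, named in the submitters' processing notes, builds such transcripts from aligned reads and gives overlapping ones a common gene number, followed by a number for each isoform. Isoforms that cover the same bases can share reads, and a counting program then has to divide those reads among them. Overlapping spans alone do not show how many reads are shared. Ischemic preconditioning is a brief, sublethal shortage of oxygen and glucose after which brain tissue tolerates a later, longer one better.

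The listed isoforms carried no gene name, strand or exon positions, and their last numbers ran up to 88; numbers without a listed transcript were not analysed here. Coordinates are those of the tables, without a build name. The nearest listed lncRNA on the left was feypor (chromosome 8, 54117419 to 54118148), and the nearest on the right was a transcript at LOC363060 (54930228 to 54932808). The nearest listed transcripts with a current RefSeq gene symbol were at Tmprss5, which encodes a transmembrane serine protease, on the left and at Il18, which encodes the cytokine interleukin 18, on the right. In RefSeq (assembly GRCr8, used only for gene order) the named protein-coding genes between these are Drd2, Ankk1, Ttc12, Ncam1, Plet1, Pts and Bco2. Drd2 encodes a dopamine receptor and Ncam1 a cell adhesion molecule of the nervous system. The tables do not say next to which of them the locus lies.

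The 35 spans fell into 3 blocks that do not overlap each other. The left block (chromosome 8, 54185046 to 54338042) held 13 isoforms. The middle block (54338115 to 54404356) held isoforms 22 and 23 and began 72 bases after it. The right block (54437285 to 54609277) held 20 isoforms and lay 32.9 kb further on. Listed transcript lengths ran from 772 bases in isoform 42 to 24593 bases in isoform 23, with a median of 4553 bases, and 11 isoforms were longer than 10 kb. Isoforms 16, 18, 20 and 21, between 54316264 and 54338042, had lengths of 98.4% to 99.1% of the genome they spanned, so little of that span was removed by splicing. In isoform 42 (54448102 to 54609277) the length was 0.479% of the span.

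**Figure D1:**
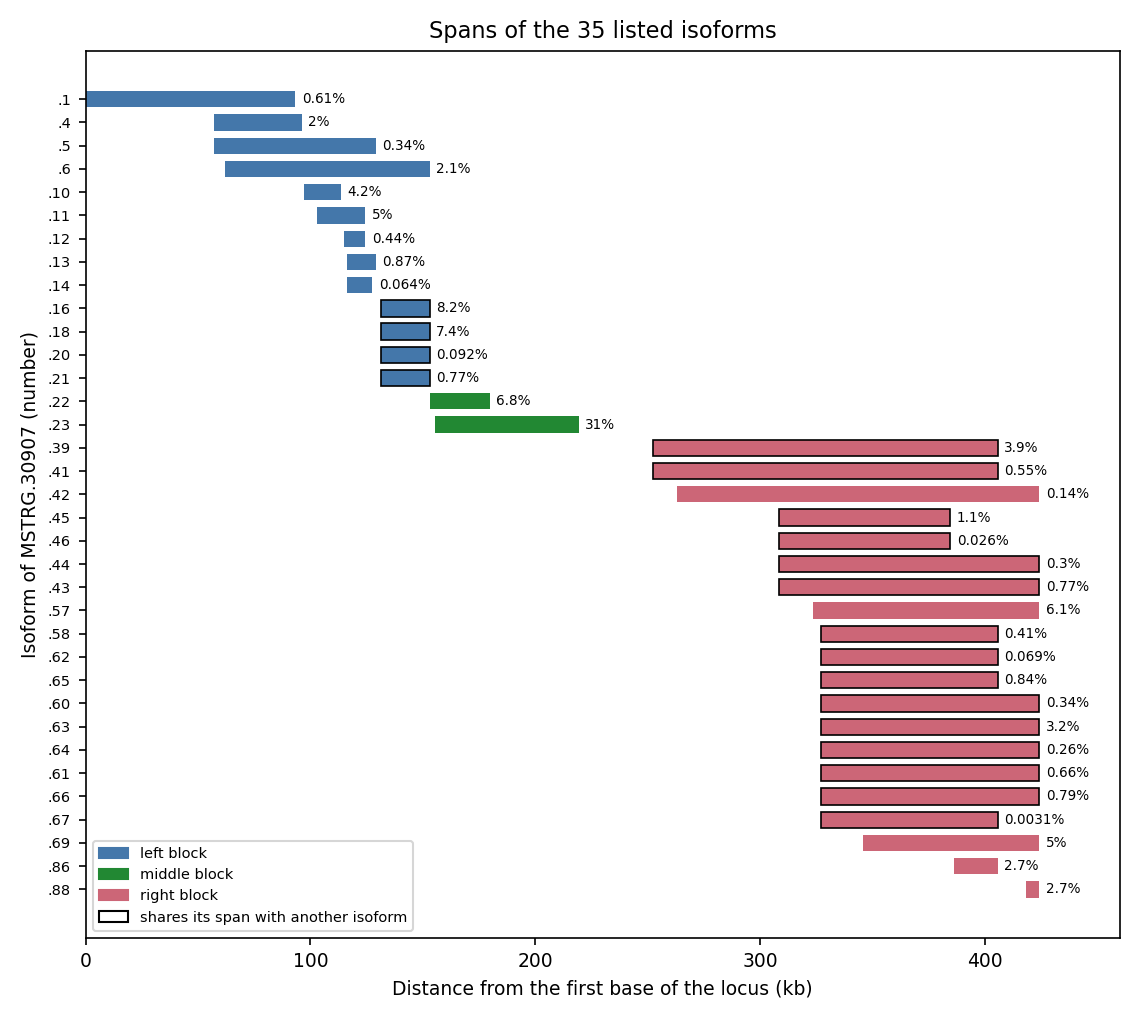
Span of each of the 35 isoforms, as distance in kb from the first base of the locus, in order of position from top to bottom; the percentage beside each bar is its mean share of locus counts over 4 libraries. Colours mark the left (13 isoforms), middle (2) and right (20) blocks, black outlines mark the 19 isoforms that share their span with another, and isoform 23 in the middle block has the highest mean share.

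The libraries held 2646300 and 2513804 lncRNA counts in OGD and 2607020 and 2631684 in control. The tables list noncoding transcripts only, so the cell type can be checked only through noncoding transcripts at marker genes. Of 10 astrocyte markers 5 had such a locus, among them Gfap, which encodes the astrocyte intermediate filament, with 139 and 51 counts in OGD and 100 and 61 in control. Loci of Aldh1l1, Aqp4, Gja1, S100b and Sox9 were not listed. Libraries with the same replicate number resembled each other, and what the number stands for is not in the labels. Of 9581 loci tested, 6.28% were at least 1.5-fold higher in replicate 2 than in replicate 1 in both groups, and 7.13% were at least 1.5-fold lower.

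The locus was among the most abundant of the tables and was about 2.2 times higher in the replicate 2 libraries. Its 35 isoforms summed to 20055 and 40452 counts in OGD replicates 1 and 2, against 23892 and 48537 in control replicates 1 and 2. These were 0.758% and 1.61% of all lncRNA counts in OGD and 0.916% and 1.84% in control. By summed count it ranked 10 in OGD replicate 1 and 7 in OGD replicate 2, and likewise 10 in control replicate 1 and 7 in control replicate 2, of 17290 loci. In both groups replicate 2 was the higher library, by 2.23-fold in OGD and 2.22-fold in control. Of all loci tested, 23.6% were higher in both replicate 2 libraries than in both replicate 1 libraries, and 24.3% were lower.

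Against that spread, OGD and control were not distinguished. The summed level was 12211 ± 6584 CPM (counts scaled to a common library size, with TMM normalization) in OGD and 14018 ± 7527 CPM in control (SD, n = 2 each), and the groups overlapped. The log2 fold change was -0.20 (SE 0.55), with an adjusted p of 1.00 in edgeR's quasi-likelihood test over all 9581 loci, of which 0.0835% passed (2.33% at an unadjusted p under 0.05). DESeq2, which called 0.397% of loci, gave -0.21. The direction depended on which libraries were compared. Without control replicate 2 it was 0.50, and without OGD replicate 1 it was 0.28. Between libraries of the same number the ratio of OGD to control was 0.869 for replicate 1 and 0.872 for replicate 2.

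The blocks did not share that ratio equally. In the left block it was 0.756 for replicate 1 and 0.809 for replicate 2, on 2154 and 5468 CPM in OGD and 2848 and 6760 CPM in control. In the middle block it was 0.847 and 0.857. The right block had 2654 and 4878 CPM in OGD and 2605 and 4971 CPM in control. Its ratios were 1.02 and 0.981, so its sum differed little between groups. With isoforms of nearly the same ends summed, the parts of this block did not share that ratio. Isoforms 39 and 41 were at 3.37 for replicate 1 and 0.774 for replicate 2. Isoforms 60, 61, 63, 64 and 66 were at 0.879 and 2.18. Isoform 42 exceeded 1 for replicate 1 only, and isoforms 43 and 44 did so for replicate 2 only. The remaining parts were below 1 for both, among them isoforms 57, 69, 86 and 88, at 0.60 to 0.95. Replicate 2 exceeded replicate 1 in every block, by 2.54, 2.37 and 1.84 times in OGD from left to right and by 2.37, 2.35 and 1.91 times in control.

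**Figure D2:**
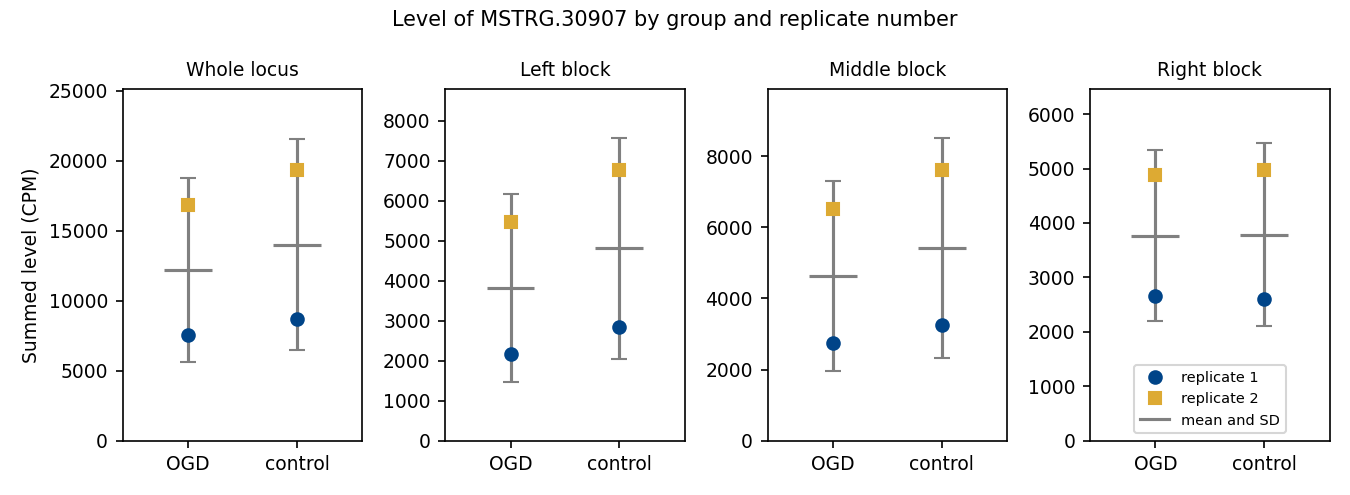
Summed level of the locus and of its 3 blocks in CPM (linear axes from 0), with OGD left of control; circles are replicate 1, squares replicate 2, grey lines and bars the mean and SD of 2 libraries. Replicate 2 lies above replicate 1 in all panels, and the left block shows the lowest OGD to control ratios, 0.756 and 0.809.

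Of the marker lists reported here, the sums of the fibroblast and meningeal, the microglial and the neuronal one were also higher in both replicate 2 libraries than in both replicate 1 libraries. The 2 listed fibroblast loci, at the collagen genes Col1a1 and Col3a1, summed to 184 and 325 CPM in OGD replicates 1 and 2, and to 160 and 344 CPM in control replicates 1 and 2. Loci at Col1a2, Dcn, Lum and Pdgfra were not listed. The microglial sum, over 3 of 7 markers, was 10.9 and 35.9 CPM in OGD and 28.4 and 43.4 CPM in control, and only Ptprc, which encodes the leukocyte surface protein CD45, divided in this way. Ptprc had 13 and 71 counts in OGD and 58 and 91 in control. Cd68, a lysosomal protein of macrophages, had 15 and 13 counts in OGD and 18 and 16 in control, and Aif1 had 1 or 2 counts in each library. Csf1r, Cx3cr1, Itgam and P2ry12 were not listed. The neuronal sum, over Gria2 and Syn1 of 7 markers, was 107 and 111 CPM in OGD and 81.9 and 110.0 CPM in control. Gria2 carried this narrow division by CPM but not by raw counts, which were 187 and 222 in OGD and 223 and 275 in control. Syn1 was lower in replicate 2 than in replicate 1 of each group. Map2, Rbfox3, Snap25, Stmn2 and Tubb3 were not listed. The sum of the 5 astrocyte loci ran the other way, at 64.4 and 33.8 CPM in OGD and 51.0 and 34.3 CPM in control. Gfap held most of these counts. Aldoc, Slc1a2 and Slc1a3 ran the same way as Gfap, on at most 26 counts in a library. Glul did not, with 0 and 7 counts in OGD and 0 in both controls. By group, the endothelial and mural sum, over Abcc9 and Pecam1 of 8 markers, was 32.0 and 25.0 CPM in OGD and 3.64 and 7.57 CPM in control. Abcc9, a potassium channel subunit gene, carried this difference, with 85 and 54 counts in OGD and 6 and 17 in control, whereas Pecam1 had 0 and 6 counts in OGD and 4 and 2 in control. Syn1, which encodes a protein of synaptic vesicles, was also higher in both OGD libraries, with 98 and 45 counts in OGD and 2 and 1 in control. Among tested loci of the neuronal and the endothelial and mural lists, 0 were called. Of all loci tested, 14.0% were higher in both OGD libraries than in both controls. The part of these cell types in the level or shares of MSTRG.30907 was not tested, and in bulk RNA fewer cells of a type and less RNA per cell cannot be told apart.

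Other assembled lncRNAs inside the span followed the same division. MSTRG.30914 (chromosome 8, 54605569 to 54607549) had 340 and 702 counts in OGD and 444 and 772 in control. MSTRG.30910, with 2 transcripts between 54280429 and 54445097 that bridge the gap before the right block, had 188 and 341 counts in OGD and 232 and 496 in control. MSTRG.30911 (54528153 to 54530499) and MSTRG.30913 (54590867 to 54591689) were at 31 and 58 and at 33 and 81 counts in OGD, against 31 and 71 and 50 and 122 in control. All 4 were 1.90 to 2.72 times higher in replicate 2 than in replicate 1 of the same group, by CPM. Without strand in the tables, reads of these loci and of MSTRG.30907 cannot be told apart where they overlap. Outside the span, feypor was flat, with 68 and 72 counts in OGD and 66 and 65 in control, and the transcript at LOC363060 had 0 counts in all 4 libraries.

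Among 7315 other loci with a mean of at least 20 counts and no library at 0, the patterns most like that of the locus were those of MSTRG.23385, flershy and MSTRG.6991. Likeness was the root mean square difference of log2 CPM over 4 libraries after removing each locus mean. It was 0.036 for MSTRG.23385 (chromosome 4, 144199834 to 144208930), at 391 and 762 counts in OGD and 457 and 884 in control. It was 0.060 for flershy (chromosome 3, 139834293 to 139835725) and 0.066 for MSTRG.6991 (chromosome 11, 57386979 to 57395592). With 4 libraries such a match is loose, and 21 loci lay within 0.1. MSTRG.30914 and MSTRG.30911 were among these, in places 8 and 15.

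The division of the locus among its isoforms had a constant and a variable part. Isoform 23 (MSTRG.30907.23; chromosome 8, 54340499 to 54404356) held the most in every library, with 30.1% and 31.6% of locus counts in OGD and 30.6% and 32.0% in control. Its mean share was 30.9% ± 1.07 in OGD and 31.3% ± 0.995 in control (SD, n = 2 each). By replicate number its mean share was 30.4% in replicate 1 and 31.8% in replicate 2. Isoform 22 (54338115 to 54364750), whose span overlaps that of isoform 23, held 6.22% and 7.01% in OGD and 6.70% and 7.35% in control. Isoform 88 (54603278 to 54609261), at the right end, held 2.62% and 2.73% in OGD and 2.57% and 2.72% in control. Isoform 1 (54185046 to 54278423), at the left end, held 0.553% and 0.633% in OGD and 0.611% and 0.655% in control. The highest share of each of these 4 isoforms was at most 1.18 times its lowest, and each share was somewhat higher in both replicate 2 libraries.

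A second group of isoforms kept a moderate spread. Isoform 57 (54508498 to 54609232) held 6.07% and 5.53% in OGD and 7.50% and 5.46% in control, and isoform 69 (54530696 to 54609277) held 5.62% and 4.75% in OGD and 5.42% and 4.36% in control. Both had lower shares in replicate 2 in each group. Isoform 4 (54242244 to 54281182) held 1.76% and 2.03% in OGD and 2.17% and 2.10% in control. The shortest isoform, 42, had 37 and 49 counts in OGD and 30 and 66 in control. Per length, the highest levels were those of isoforms 69, 23, 22, 86 and 88 in this order of mean FPKM (fragments per kilobase of transcript, scaled to library depth). Isoform 69 was at 13.2 and 22.4 FPKM in OGD and 15.1 and 23.4 FPKM in control, and isoform 23 at 9.86 and 20.8 FPKM in OGD and 11.9 and 23.9 FPKM in control. Differences between neighbours in this order were smaller than those between libraries of 1 group.

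Other isoforms changed places with each other. Of the 35, 22 had counts in all 4 libraries and 13 were at 0 in at least 1. Of the 31 isoforms that reached 100 counts in a library, 10 (32.3%) were at 0 in another library. For all listed StringTie transcripts of that size the percentage was 10.0, and for listed transcripts of any kind 3.5. It was 42.1 (32 of 76) pooled over 9 other StringTie loci with at least 5 transcripts and at least 500 counts in every library. MSTRG.2538 weighed heavily in that pool, with 17 of 27. Single loci ran from 0 of 4 (MSTRG.2545) to 4 of 6 (MSTRG.26368), so the locus lay within the range of its kind. A count of 0 allows a share of up to 0.0150% and 0.00742% of the locus in OGD replicates 1 and 2, and up to 0.0126% and 0.00618% in control replicates 1 and 2. These limits, and the intervals given for shares, cover counting error only.

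**Figure D3:**
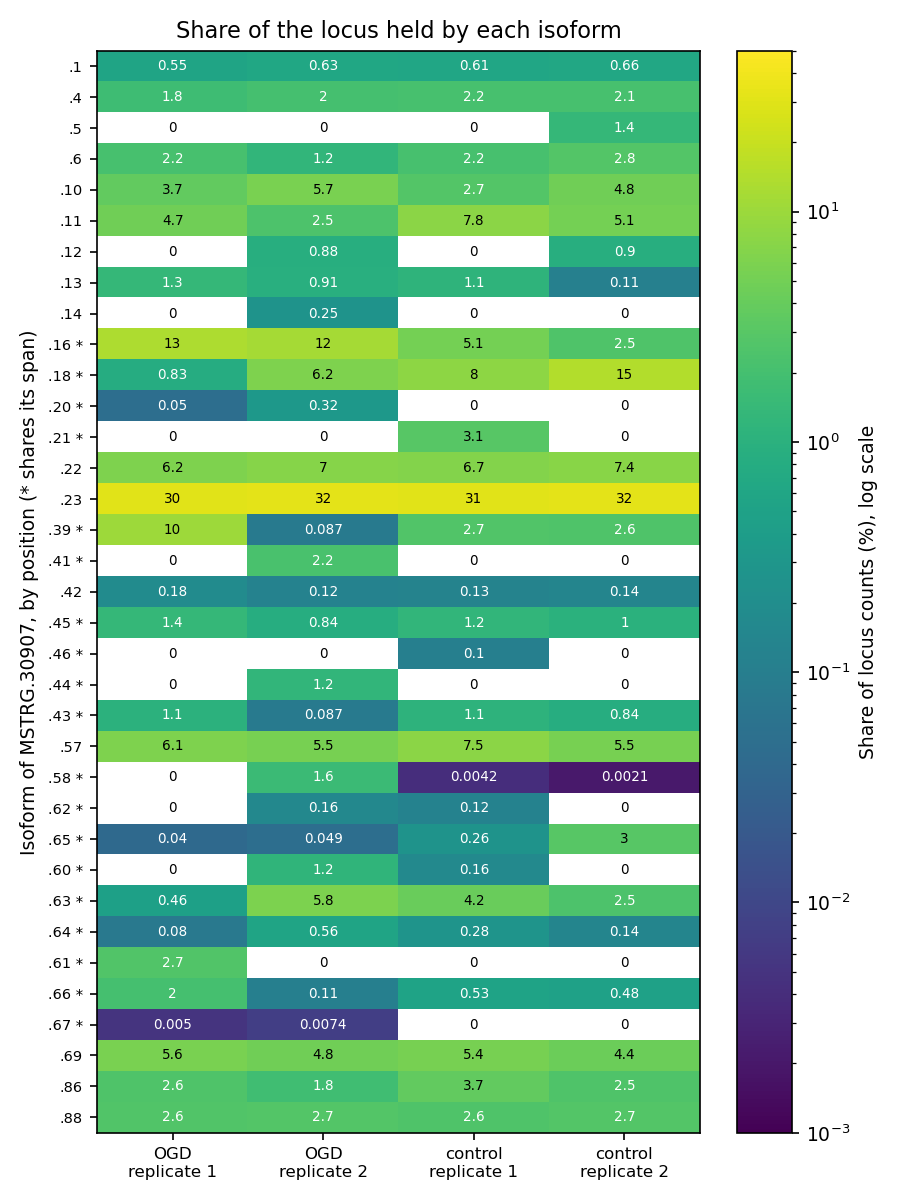
Share of locus counts (%, colour on a log scale, white for 0) of each isoform, by position from top to bottom, in OGD replicates 1 and 2 and control replicates 1 and 2; asterisks mark isoforms that share a span. Isoform 23 is between 30.1% and 32.0% throughout, whereas most rows with an asterisk differ between libraries by several-fold or drop to 0.

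Some of the exchanges lay between isoforms with nearly the same ends. Isoforms were called same-span when both ends lay within 50 bases, a rule set after seeing the data. This gave 6 sets with 19 isoforms, while 16 isoforms had a span of their own. Of the 19, 10 were at 0 in some library, and of the 16, 3 were. Among isoforms above 0 in all libraries, the highest share was a median of 12.7 times the lowest for the 9 in sets, and 1.37 times for the 13 with their own span. The leading isoform differed between libraries in 5 of the 6 sets. Summing a set did not in general give a constant share: the highest summed share was at most 1.5 times the lowest in 1 of the 6 sets. It was 1.55 times for isoforms 43 and 44 and 1.61 times for isoforms 45 and 46, close to that limit. In the remaining sets it lay between 2.50 and 67.0 times.

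The set with the most counts was formed by isoforms 16, 18, 20 and 21, whose starts lie within 24 bases and whose ends lie within 19 bases of each other. Isoform 16 had 2679 and 4771 counts in OGD and 1222 and 1232 in control. Isoform 18 had 166 and 2522 counts in OGD and 1910 and 7061 in control. As shares of the locus, isoform 16 held 13.4% (Wilson 95% interval 12.9% to 13.8%) and 11.8% (11.5% to 12.1%) in OGD, against 5.11% (4.84% to 5.40%) and 2.54% (2.40% to 2.68%) in control. Isoform 18 held 0.828% and 6.23% in OGD, against 7.99% and 14.5% in control. The 2 OGD libraries were the higher ones for the share of isoform 16 and the lower ones for that of isoform 18, without overlap of groups.

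The remaining members of this set appeared in few libraries. Isoform 21 had 732 counts in control replicate 1 and 0 in the other 3 libraries. Isoform 20 had 10 and 128 counts in OGD and 0 in both controls. Summed, the set held 14.2% and 18.3% of the locus in OGD and 16.2% and 17.1% in control, or 16.3% ± 2.91 in OGD and 16.6% ± 0.646 in control (SD, n = 2 each). The opposite differences of isoforms 16 and 18 were thus not seen in their sum.

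In several sets OGD replicate 2 counted an isoform that the other libraries did not. Isoform 41, of 6269 bases, had 888 counts there and 0 in the other 3 libraries, while isoform 39, of 6267 bases and the same ends (54437285 to 54590750), had 35 counts there. In the other libraries isoform 39 had 2076 counts in OGD replicate 1, and 638 and 1248 in control. Summed, isoforms 39 and 41 held 10.4% and 2.28% of the locus in OGD and 2.67% and 2.57% in control, so OGD replicate 1 stood apart in the sum as well. Isoform 44 had 493 counts in OGD replicate 2 and 0 elsewhere, where isoform 43, with the same start, had 35 counts in OGD replicate 2, 213 in OGD replicate 1, and 262 and 409 in control. Isoform 58 had 0 and 659 counts in OGD and 1 in each control.

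Isoform 65 lies 3 bases from isoform 58 at the start and 4 at the end, and was listed at 2925 bases against 2906. Isoform 65 had 8 and 20 counts in OGD and 61 and 1459 in control. With isoforms 62 and 67, listed at 11208 and 13778 bases, isoforms 58 and 65 form a set. This set held 0.0449% and 1.84% of the locus in OGD and 0.381% and 3.01% in control. Its ratio of highest to lowest share (67.0) was the highest among the 6 sets. Each replicate 2 library was far above the replicate 1 library of its group. The set with isoforms 60, 61, 63, 64 and 66 (54511912 to 54609277) was led by isoform 61 in OGD replicate 1, with 532 counts and 0 in every other library. In OGD replicate 2 and both controls it was led by isoform 63, at 2366 counts in that OGD library and 1005 and 1191 in control, against 93 in OGD replicate 1. This set held 5.24% and 7.70% of the locus in OGD and 5.18% and 3.08% in control. Nearly the same ends did not mean similar lengths, since isoform 61 was listed at 2623 bases and isoform 63 at 11219.

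**Figure D4:**
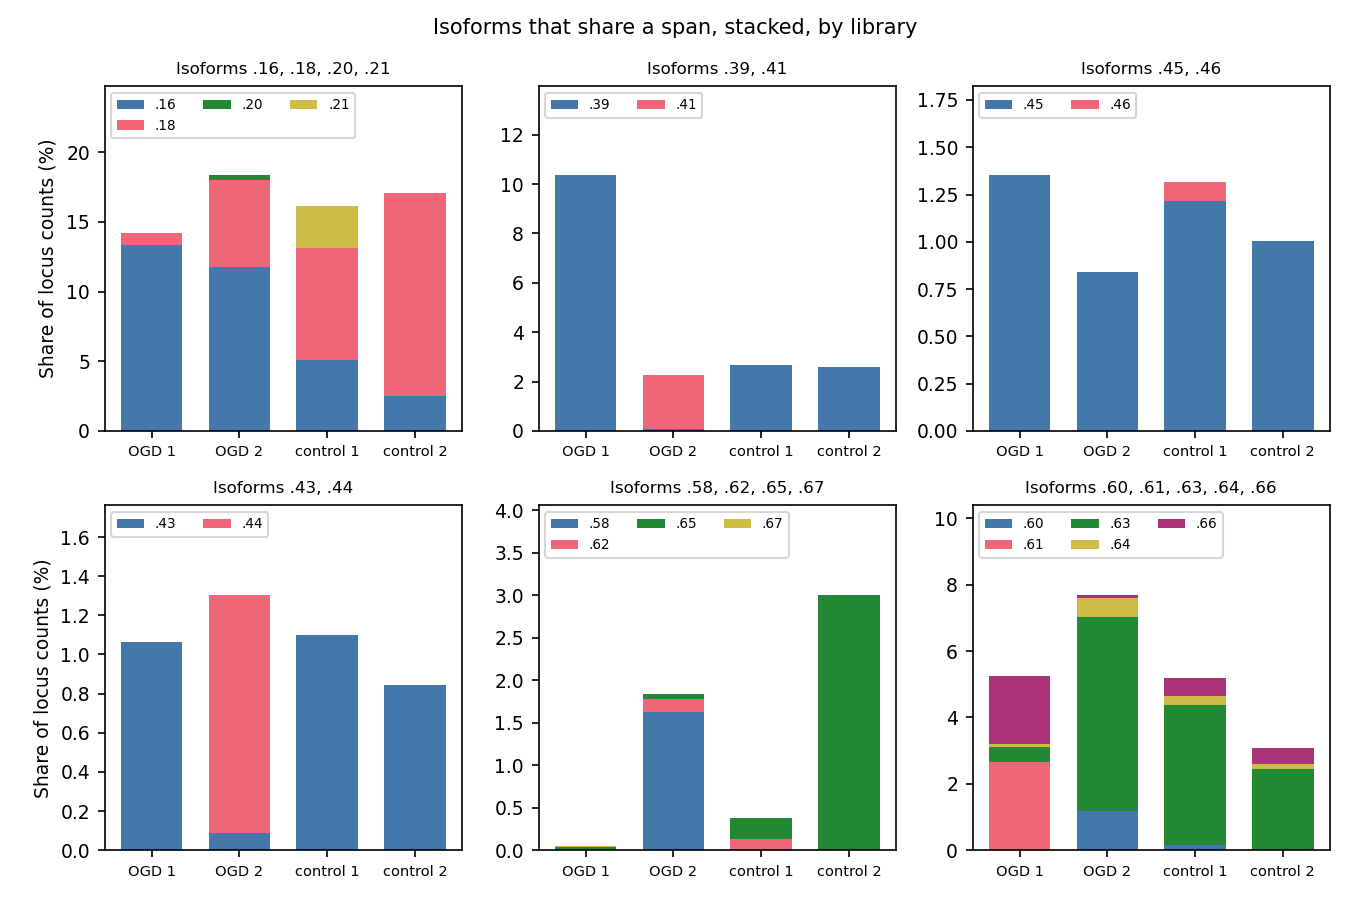
Share of locus counts (%) of the isoforms in each of the 6 same-span sets, stacked, for OGD replicates 1 and 2 and control replicates 1 and 2; each panel has its own axis from 0. In the first panel isoform 16 is the larger part in both OGD libraries and isoform 18 in both controls while the stack stays between 14.2% and 18.3%; in the panels of isoforms 39 and 41 and of isoforms 43 and 44 the colour changes in OGD replicate 2 only.

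A few isoforms also came and went in the rest of the left block, outside the set of isoforms 16, 18, 20 and 21, where spans overlap without matching. Isoform 12 (54299891 to 54309375) had 0 and 354 counts in OGD and 0 and 437 in control, present in both replicate 2 libraries and in neither replicate 1 library. Isoform 11 (54288177 to 54309375), which contains it and ends at the same base, held 4.73% and 2.47% in OGD and 7.76% and 5.12% in control. Isoform 10 (54282388 to 54298562) held 3.71% and 5.65% in OGD and 2.74% and 4.84% in control, higher in both replicate 2 libraries. Isoform 5 had 656 counts in control replicate 2 and 0 in the other 3 libraries, and isoform 14 had 103 in OGD replicate 2 alone.

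The division can be read as the percentage of locus counts that would have to be placed on other isoforms for 1 library to match another. Over all 35 isoforms it was 21.8% between OGD and control of replicate 1 and 22.1% between those of replicate 2. It was 23.8% between the OGD libraries and 16.5% between the controls, so libraries of 1 group, or of 1 number, were about as far apart as the others, at 20.6% and 26.6%. With same-span isoforms summed, which can only lower the value, these became 9.29% and 8.69% within numbers, 14.4% and 10.8% within groups, and up to 13.7% for the others. Between whole blocks they lay between 1.37% and 9.42%. The mean over the 6 pairs was 21.9% for isoforms, 11.5% for the 22 spans and 4.94% for blocks, so the larger part of the mean distance remained between different spans. Of 23 other StringTie loci with at least 5 transcripts, 9 had at least 500 counts in every library; their mean over pairs for isoforms ran from 5.91% to 66.8%, with a median of 23.0%. MSTRG.30907 was thus in the middle of loci of its kind.

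**Figure D5:**
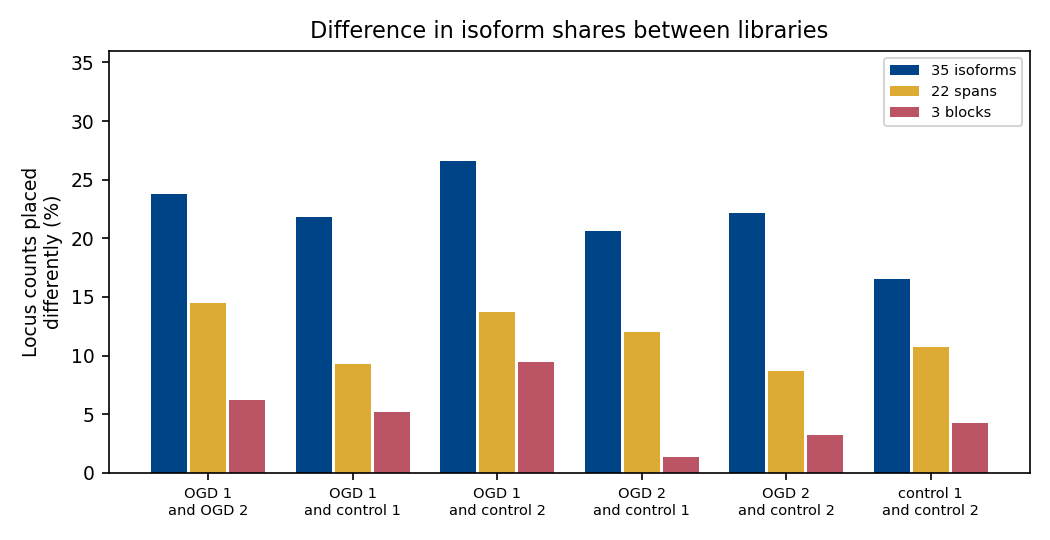
Percentage of locus counts that would have to be placed elsewhere for 1 library to match another, for the 6 pairs of libraries, over 35 isoforms, 22 spans with same-span isoforms summed, and 3 blocks. Bars for isoforms lie between 16.5% and 26.6%, and those for spans between 8.69% and 14.4%.

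By group, the shares of 3 of the 35 isoforms (16, 20 and 67) were higher in both OGD libraries than in both controls, and those of 4 (4, 11, 18 and 65) were lower. Of the 131 isoforms of the 9 comparable loci, 9.92% were higher in this way and 13.7% lower. A single locus, MSTRG.2538, held 71 of these 131 isoforms. By replicate number, the shares of 6 of the 35 were higher and those of 8 lower in both replicate 2 libraries, against 20.6% higher and 14.5% lower in the comparable loci. Isoform 67 rested on 1 and 3 counts in OGD and 0 in control. By level, 25 isoforms had enough counts in enough libraries to pass edgeR's filter and be tested between OGD and control, and 10 did not. Some of these 10 had many counts in 1 library, such as isoform 41 with 888. Of the 25, 2 had CPM without overlap higher in OGD and 4 lower, against 14.2% higher and 14.1% lower over all 10892 transcripts tested. By replicate number, 15 of the 25 were higher in both replicate 2 libraries and 0 lower, against 22.9% and 23.8% of all transcripts tested. Shares of a locus sum to a fixed total, and isoforms that overlap within a block can share reads, so isoforms are not independent of each other.

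By edgeR's quasi-likelihood test, 0 of the 25 isoforms passed the adjusted p of 0.05 over all transcripts, where 0.00918% passed. At an unadjusted p under 0.05 there were 3, isoforms 16, 11 and 65, against 2.68% of transcripts tested. The locus was selected for its counts in these same libraries, and its isoforms are not independent. This comparison with all transcripts is therefore a description and no evidence of a group difference. Isoform 16 measured 1499 ± 693 CPM in OGD and 468 ± 32.6 CPM in control (SD, n = 2 each). Its log2 fold change was 1.67 (SE 0.37, edgeR adjusted p = 1.00). Isoform 11 was at 387 ± 41.7 CPM in OGD and 832 ± 223 CPM in control (SD, n = 2 each), with a log2 fold change of -1.11 (SE 0.26, edgeR adjusted p = 1.00). Isoform 65 had a log2 fold change of -5.74 (SE 1.81), with most of its counts in control replicate 2. Over the 25 isoforms the median log2 fold change stood at -0.22, against -0.0046 for all transcripts tested. Isoform 23 stood at -0.22 (SE 0.60), isoform 18 at -1.66 (SE 1.43) and isoform 39 at 0.13 (SE 1.63).

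DESeq2 gave another answer, with 7 of the 34 isoforms to which it gave an adjusted p past 0.05, where 0.605% of all transcripts passed. Isoform 16 was 1 of them (log2 fold change 1.67, DESeq2 adjusted p = 0.0176). The other 6 were isoforms 5, 21, 41, 44, 58 and 61, each with at most 1 count in each of 3 libraries and its counts in a single one. For these 6 the second library of the same group was at 1 count or 0, so the call rests on 1 library. These 6 had not passed edgeR's filter and were not tested in its main fit. The comparison with all transcripts is a description here too, since the locus was selected for its counts in these libraries.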

How the data were processed

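RNA sequencing of rat cortical astrocytes gave 1 deposited table per library, with raw read counts and FPKM for the same transcripts. Per the file headers, counts and FPKM stand side by side with a position and a length. Alignment and assembly tools named in the submitters' processing notes are HISAT2 and StringTie, without versions; no source used here gives the counting program or its use of strand. The only build in the notes is mm9, of the mouse, but the tables hold rat identifiers and 20 numbered chromosomes, so no build is stated.

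The deposited FPKM values were recomputed from counts, lengths and 1 total per library within 0.05% for transcripts above 0; totals were 24934040 and 25016962 in OGD and 24949814 and 26371055 in control.

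Rows were summed to 17290 loci by StringTie gene identifier or gene name. Loci and transcripts were tested on group with edgeR 4.0.16 in R 4.3.3 (filterByExpr, TMM, quasi-likelihood F test, Benjamini-Hochberg); standard errors were derived as the size of the log2 fold change over the root of F. DESeq2 1.42.0 was an alternative. CPM use the TMM-scaled totals of tested loci. On simulated counts, 50% of 4-fold and 98% of 16-fold changes were called among 9581 loci, and 22% and 100% among 10892 transcripts. The simulated counts held no effect of replicate number and no isoforms switched off in single libraries, so these rates need not hold for this locus. Shares are counts over the summed locus count, with Wilson 95% intervals (scipy 1.17.1). Isoforms named had at least 5% of the locus in a library, passed edgeR, switched between groups or numbers (at most 3 counts against at least 30), or were longest or shortest; others (1, 4, 5, 14, 20, 21, 41, 43, 44, 58, 60, 61, 62, 64, 65, 66, 67, 86 and 88) were chosen after their values were seen. The locus, lists and alternatives were chosen with earlier results of these data known. Figures were drawn with matplotlib 3.10.9. 1 marker list is not reported here.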

Additional observations from a re-analysis of the deposited data

How the results depend on the processing

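The same-span rule, its tolerances and the distance between libraries were chosen after seeing the data. The log2 fold change of the locus total lay between -0.21 and -0.18 under DESeq2, other scalings, no filter, the replicate block and without isoform 23, and from -0.89 to 0.50 when 1 library was omitted, changing sign without control replicate 2 or OGD replicate 1. With the replicate number as a block it was -0.20 (unadjusted p = 0.0247, edgeR adjusted p = 0.873), and 0 isoforms passed; no label explains that number, and same-numbered libraries deviated from their group means with a correlation of 0.300 across loci. The count of 0 isoforms called became 7 with DESeq2 and 3 when at least 2-fold and an unadjusted p under 0.05 were asked, and was 0 with each library left out. As shares of summed FPKM, which give less weight to long isoforms, isoform 23 held 9.08% in OGD and 9.59% in control and the set of isoform 16 held 5.50% and 5.84%. The mean distance between libraries became 26.1% for isoforms and 16.8% for same-span sets by FPKM, and 20.7% for sets with identical ends only. Of 132 alternative values of named isoforms, 112 kept direction and side, 1 newly passed (isoform 16 in DESeq2) and 19 changed sign, none of which had passed. With the replicate block isoform 39 was at -1.58 and isoform 63 at -1.14. With a library left out, isoform 10 lay between -1.07 and 1.38, 12 between -10.85 and 10.58, 22 between -1.09 and 0.51, 23 between -0.96 and 0.52, 39 between -4.63 and 1.10, 42 between -0.61 and 0.66, 57 between -0.90 and 0.14, 63 between -3.58 and 1.25 and 69 between -0.63 and 0.39; a lone library was assumed to vary like the other group. Apart from the construction of each alternative, the cause was not tested; leaving out a library leaves 3.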
